A study of Mus musculus with 20 samples.

Results

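Collagen chain genes are the protein-coding genes named Col, a number, a and a number, each of which encodes 1 chain of a collagen. The members were chosen by that name pattern alone, with no use of their levels. Of the 31184 genes listed in both count tables, 43 are members: 10 fibrillar chains, 6 type IV chains of basement membranes and 27 others. The chow table lists 44, the added gene being Col2a1, a cartilage chain with 0 to 5 reads per chow library.

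The libraries were made from poly-A RNA of flushed mouse colon sections, 4 per group in 5 groups, all taken after a 4-hour fast. Chow ff are Pcca floxed controls, chow Vill carry the Pcca deletion driven by Villin-Cre, which acts in the intestinal epithelium, and chow Alb carry a liver deletion driven by Albumin-Cre. These 3 groups ate standard chow and were killed at 9 weeks. HFD ff and HFD Vill were males moved at 6 weeks of age to a diet in which fat supplies 60% of the calories, kept on it for 12 weeks, and killed at 18 weeks. The ff animals are described as littermates of the Villin-Cre knockouts; the Alb line is described as made earlier. The Pcca product belongs to propionyl-CoA carboxylase, which works in mitochondria on carbon from propionate and some amino acids. Neither Cre is directed at the mesenchymal cells that make most collagen, and the labels do not say how litters were spread over the libraries, so p-values measure the spread between these libraries only.

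Collagens are rope-like trimers of chains. Fibrillar collagens of types I, III and V form the load-bearing fibrils of the gut submucosa and muscle coat, type IV forms the sheet under epithelia, vessels and muscle cells, and type VI forms beaded filaments beside cells. In the colon wall they come mainly from fibroblasts, smooth muscle and vessel-associated cells, while epithelial cells contribute some basement membrane chains. In bulk tissue, fewer cells of a type and less RNA per cell cannot be told apart.

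Libraries held 27.9 to 40.4 M counted reads on chow and 16.9 to 24.4 M on HFD, and mitochondrial transcripts took 3.14 to 4.07% and 4.5 to 9.75% of them. All 12 chow libraries carried Xist reads and no Ddx3y read, and all 8 HFD libraries carried Ddx3y, so diet, age, sex and depth go together and cannot be told apart. Pcca itself averaged 48.3 ± 9.12 CPM (counts per 1 M counted reads, SD over 4 libraries) in chow ff, 30.2 ± 2.53 in chow Vill, 45.8 ± 8.81 in chow Alb, 43.2 ± 15.5 in HFD ff and 34.2 ± 2.09 in HFD Vill. Villin-Cre libraries of either diet thus kept Pcca reads, and the HFD groups overlapped. Libraries differed widely in markers of muscle, nerve and small intestine, as given below beside the collagens they moved with.

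Sequences just before the start of 35 of the 43 genes are in RefSeq's GRCm38.p6 promoter set, a different build from the deposited coordinates. Those of Col3a1, the most abundant chain, and Col5a1, which makes fibrils with it, are shown because their base composition lies far apart. The stretch between Col4a4 and Col4a3 is shown because both type IV genes start at its ends and run in opposite directions. Capitals mark the motif TATAAA in the Col3a1 stretch and the motif GGGCGG, read on either strand, in the Col5a1 stretch. The motif CCAAT was searched as well, on both strands, and is in none of the 3, and no matches overlap. All are written along the plus strand.
Col3a1, chr1:45311288-45311537: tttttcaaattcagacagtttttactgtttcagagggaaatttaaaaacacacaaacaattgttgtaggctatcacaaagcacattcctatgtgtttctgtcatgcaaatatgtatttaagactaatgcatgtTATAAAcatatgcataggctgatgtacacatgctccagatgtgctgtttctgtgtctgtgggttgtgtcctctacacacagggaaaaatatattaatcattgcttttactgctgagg
Col5a1, chr2:27886175-27886424: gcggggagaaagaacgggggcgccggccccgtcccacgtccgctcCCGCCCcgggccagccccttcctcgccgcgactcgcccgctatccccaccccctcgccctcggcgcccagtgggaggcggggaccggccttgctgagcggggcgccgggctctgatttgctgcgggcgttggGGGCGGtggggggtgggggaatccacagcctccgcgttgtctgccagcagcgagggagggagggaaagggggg
Col4a4 to Col4a3, chr1:82586850-82586920: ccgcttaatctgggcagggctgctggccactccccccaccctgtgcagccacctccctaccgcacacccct

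The Col3a1 stretch holds 35.2% G and C and the Col5a1 stretch 76.4%, beside a median of 59% over the collagen windows and 52.4% over all 32851 windows. In the 250 bases before the start, GGGCGG or its complement occurs in 21 of the 35 collagens (60%) and in 32.7% of all windows. CCAAT occurs in 13 (37.1%, against 33.8%) and TATAAA in 5 (14.3%, against 12.4%). These letter matches describe the windows and say nothing of which factors bind there. Col4a1 and Col4a2, the main type IV pair, lie head to head on chromosome 8 in the deposited table (11248423 to 11362826 and 11362805 to 11499287, mm39), with 22 bases in common. Col4a3 and Col4a4 lie head to head on chromosome 1 with 71 bases between them.

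Per kilobase of gene length, Col3a1, the type III chain, was the most abundant collagen transcript, at a mean of 30.6 CPM per kb over the 20 libraries. It was followed by Col6a1 (19.7), Col4a1 (15.6), Col1a1 (12.2), Col4a2 (12.1), Col1a2 (8.61) and Col6a2 (7.78). Types III, VI, IV and I therefore fill the highest ranks of this pooled mean. The order differed between groups: Col1a1 lay above Col4a2 in chow ff (20 against 17 CPM per kb) and below it in HFD ff (4.5 against 6.11). Among other collagens Col16a1, which decorates fibrils, reached 5.39 and Col6a3, the long chain of type VI, 4.07. The type V chains Col5a2 and Col5a1, which set fibril width, stood at 4.33 and 4.32, and Col18a1, a vessel and epithelial basement membrane collagen, at 3.24. The low end of type IV was held by Col4a3 (0.0825) and Col4a4 (0.0694), chains best known from the kidney filter. Some collagens known from cartilage and growth plate were near the limit of detection: Col10a1 had 23 reads and Col9a1 74 in all 20 libraries together. Other cartilage chains were detected, Col9a2 with group means of 2.1 to 4.04 CPM and Col11a2 with 2.24 to 3.05 CPM. Col19a1 had 18, Col26a1 79 and Col6a6 76 reads, and these 5 did not pass the expression filter of any comparison. Col22a1 (162 reads) passed it in the chow comparisons only.

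**Figure D1:**
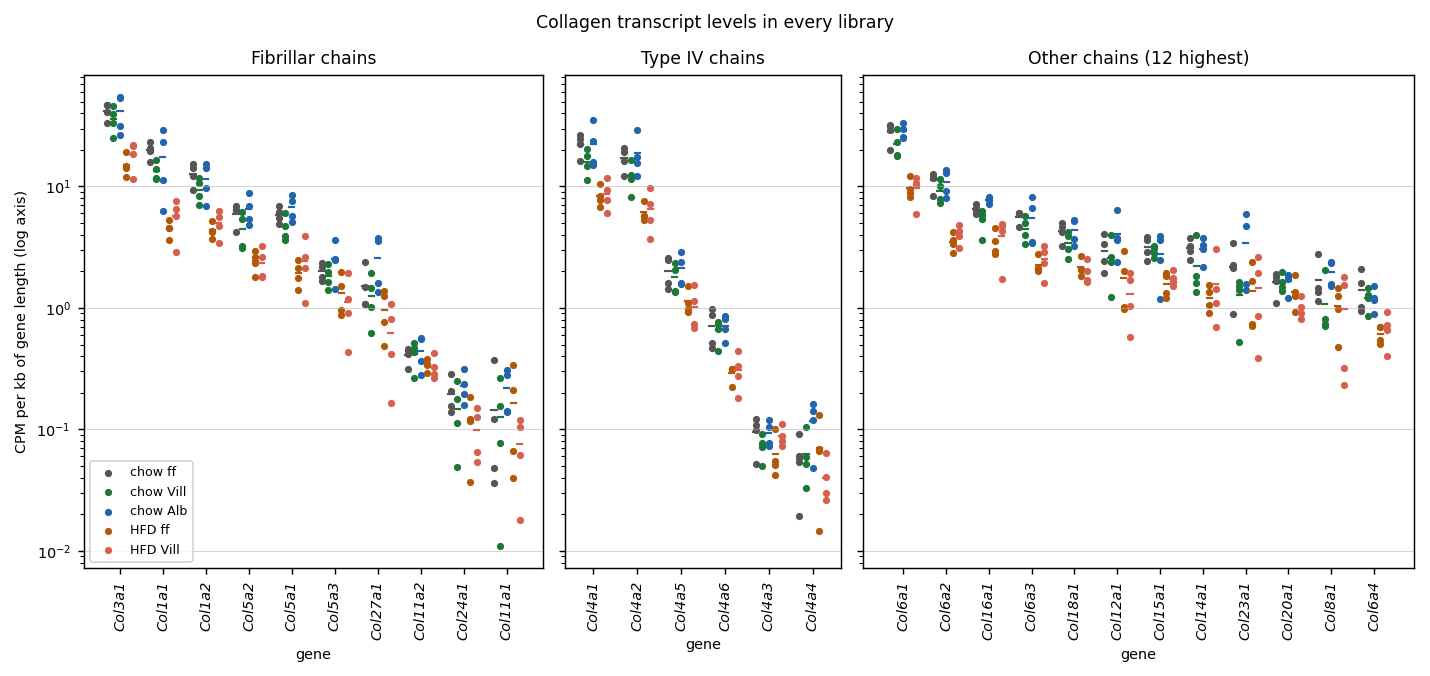
Points are libraries, short bars group means, the y axis CPM per kb of gene length on a log scale, and colours the 5 groups; panels show the 10 fibrillar, 6 type IV and 12 highest other chains. Col3a1, Col6a1 and Col4a1 lead their panels, and HFD libraries lie low for the abundant chains.

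Collagens summed to 1668 ± 253 CPM in chow ff, 1308 ± 283 in chow Vill, 1705 ± 491 in chow Alb, 644 ± 88.8 in HFD ff and 695 ± 199.5 in HFD Vill. The shares of the larger classes in that sum varied less than the sum itself. Fibrillar chains were 51 ± 1.75% of it in chow ff, 51.6 ± 3.3% in chow Vill, 49 ± 4.45% in chow Alb, 46.4 ± 4.26% in HFD ff and 49.4 ± 1.27% in HFD Vill. Type IV chains were 16.6 to 18.3% and type VI chains 16.3 to 18.5% in the group means. Smaller classes moved more: fibril-associated chains were 7.47 ± 0.613% in chow ff and 10.9 ± 1.57% in HFD ff. Transmembrane chains were 1 ± 0.478% and 2.25 ± 1.3% in the same groups.

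Among fibrillar chains, Col3a1 stood at 458, 406, 327 and 463 CPM in the 4 chow ff libraries, at 246, 391, 326 and 448 in chow Vill and at 262, 310, 525 and 536 in chow Alb. On HFD it stood at 144, 188, 117 and 139 in ff and at 212, 217, 182 and 114 in Vill. The 3 chow groups overlapped, the 2 HFD groups overlapped, and no HFD library reached the lowest chow library. Col1a1, the main chain of type I, stood at 137, 129, 105 and 153 CPM in chow ff and at 77.2, 108, 75.9 and 91.2 in chow Vill. In chow Alb it ran from 41.4 (Alb 1) to 191 (Alb 4), the lowest and the highest of all chow libraries. HFD ff held 24 to 34.7 CPM and HFD Vill 19 to 49.5, with Vill 4 lowest. Only Vill 2 (108 CPM) kept the chow Vill range of Col1a1 from lying wholly below the chow ff range, and Alb 1, at 41.4, lay below the highest HFD library. Col1a2, the partner chain of type I, stood at 191, 152, 117 and 176 CPM in chow ff, at 87, 145, 103 and 133 in chow Vill, and at 46.1 to 64.4 in HFD ff.

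The first comparison asks what loss of Pcca in the gut epithelium does on chow. No collagen passed an adjusted p of 0.05 (0 of 38 tested), where 0.00508% of all 19701 genes did, which is the single gene Gm45774. At an unadjusted p under 0.05 there were also 0 of 38 collagens, beside 1.9% of all genes, and DESeq2 and limma-voom called 0 collagens in this and every later comparison. The estimates leaned downward: 32 of 38 collagens (84.2%) were lower in Vill, beside 49.2% of all genes, with a median log2 fold change of -0.30 against 0.00 for all genes. That lean held for 9 of 10 fibrillar, 5 of 6 type IV and 18 of 22 other chains, and for 29 to 35 collagens when any single library was left out.

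The collagens nearest to the threshold in that comparison were Col16a1, Col6a1, Col4a1, Col4a2 and Col5a1. Col16a1 stood at 44.6, 40.3, 42.9 and 48.6 CPM in chow ff and at 24.7, 39, 36.6 and 42.5 in chow Vill, a log2 fold change of -0.30 (95% interval -0.62 to 0.01, adjusted p = 1 in edgeR's quasi-likelihood test). Vill 1 was the low library and Vill 4 lay inside the ff range. Col4a1 stood at 199, 182, 121 and 167 CPM in ff and at 109, 134, 83.9 and 151 in Vill (log2 -0.49, -1.08 to 0.11). Col4a2 followed it (-0.49, -1.10 to 0.12), with Vill 3 the lowest library for both and the groups overlapping. For type I the intervals ran from -1.37 to 0.24 for Col1a1 and from -0.99 to 0.11 for Col1a2, and for Col3a1 from -0.78 to 0.32. Type VI chains were at -0.34 (Col6a1), -0.29 (Col6a2), -0.32 (Col6a3), -0.24 (Col6a4) and -0.21 (Col6a5), none past the threshold. None of these intervals excludes 0.

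Markers of several cell types had lower estimates in Vill in the same comparison, with none past the threshold. The 10 smooth muscle markers were all lower in Vill by estimate (median log2 -0.51), and their summed level ran from 1150 to 7390 CPM in Vill and from 4480 to 9220 in ff. Of the 9 enteric neuron and glia markers tested 8 were lower (median -0.27), with sums of 21.1 to 129 CPM in Vill and 57.2 to 137 in ff. All 10 fibroblast markers, of which Fbln1 is also a fibril partner, were lower (median -0.29). Macrophage markers were lower in 6 of 7 (median -0.36, sums of 63.7 to 141 CPM in Vill and 101 to 184 in ff), endothelial markers in 8 of 8 (median -0.18, 56 to 113 and 78.2 to 115) and pericyte markers in 5 of 6 (median -0.30, 81.6 to 397 and 195 to 672). Epithelial markers split 5 lower to 4 higher (median -0.01). Small intestine markers split 2 lower to 4 higher, with sums of 43.4 to 918 CPM in Vill and 72.6 to 1020 in ff. No marker of these lists was at 0 in all 20 libraries. Their part in the collagen values was not tested.

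The second comparison asks whether loss of Pcca in the liver is accompanied by a change in the colon. Again 0 of 38 collagens were called, beside 0% of all genes, and by unadjusted p there was 1 collagen, beside 4.4% of all genes. By estimate 26 of 38 were higher in Alb (median log2 0.12, all genes 0.00). So were 10 of 10 smooth muscle (median 0.37), 8 of 9 neuron and glia (0.51), 6 of 6 pericyte (0.31) and 7 of 8 endothelial markers (0.12), none past the threshold. Epithelial markers split 4 higher to 5 lower and macrophage markers 1 to 6. The part of these markers in the collagen values was not tested. The count of lower collagens was 12, and ran from 6 to 17 when any single library of the 2 groups was left out. It was 6 without Alb 1 and 7 without chow ff 1. The gene past the unadjusted threshold was Col17a1, a transmembrane collagen that anchors squamous epithelium to its basement membrane. It stood at 0.204, 0.127, 0.233 and 0.229 CPM in chow ff and at 0.28, 2.23, 0.292 and 0.446 in chow Alb. Every Alb library lay above every ff library, as for 1.2% of all genes in that direction, but Alb 2 stood far above the other 3. The log2 fold change was 2.03 (0.41 to 3.65, adjusted p = 0.99) and was 0.77 without Alb 2. The exact 2-sided permutation p was 0.0286, the smallest that 4 against 4 can give, and 0.741 after adjustment over 124 pairs of gene and comparison. A lone pair at 0.0286 could not pass that adjustment. The same library held 91.1 CPM of squamous epithelium markers, where the other 19 held 1.48 to 9.06, and their part was not tested. Col4a4 was at 1.06 (-0.08 to 2.20), and the abundant chains lay near 0: Col3a1 at -0.02, Col4a1 at 0.00 and Col6a1 at 0.02, with intervals of -0.57 to 0.53, -0.59 to 0.60 and -0.40 to 0.43.

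**Figure D2:**
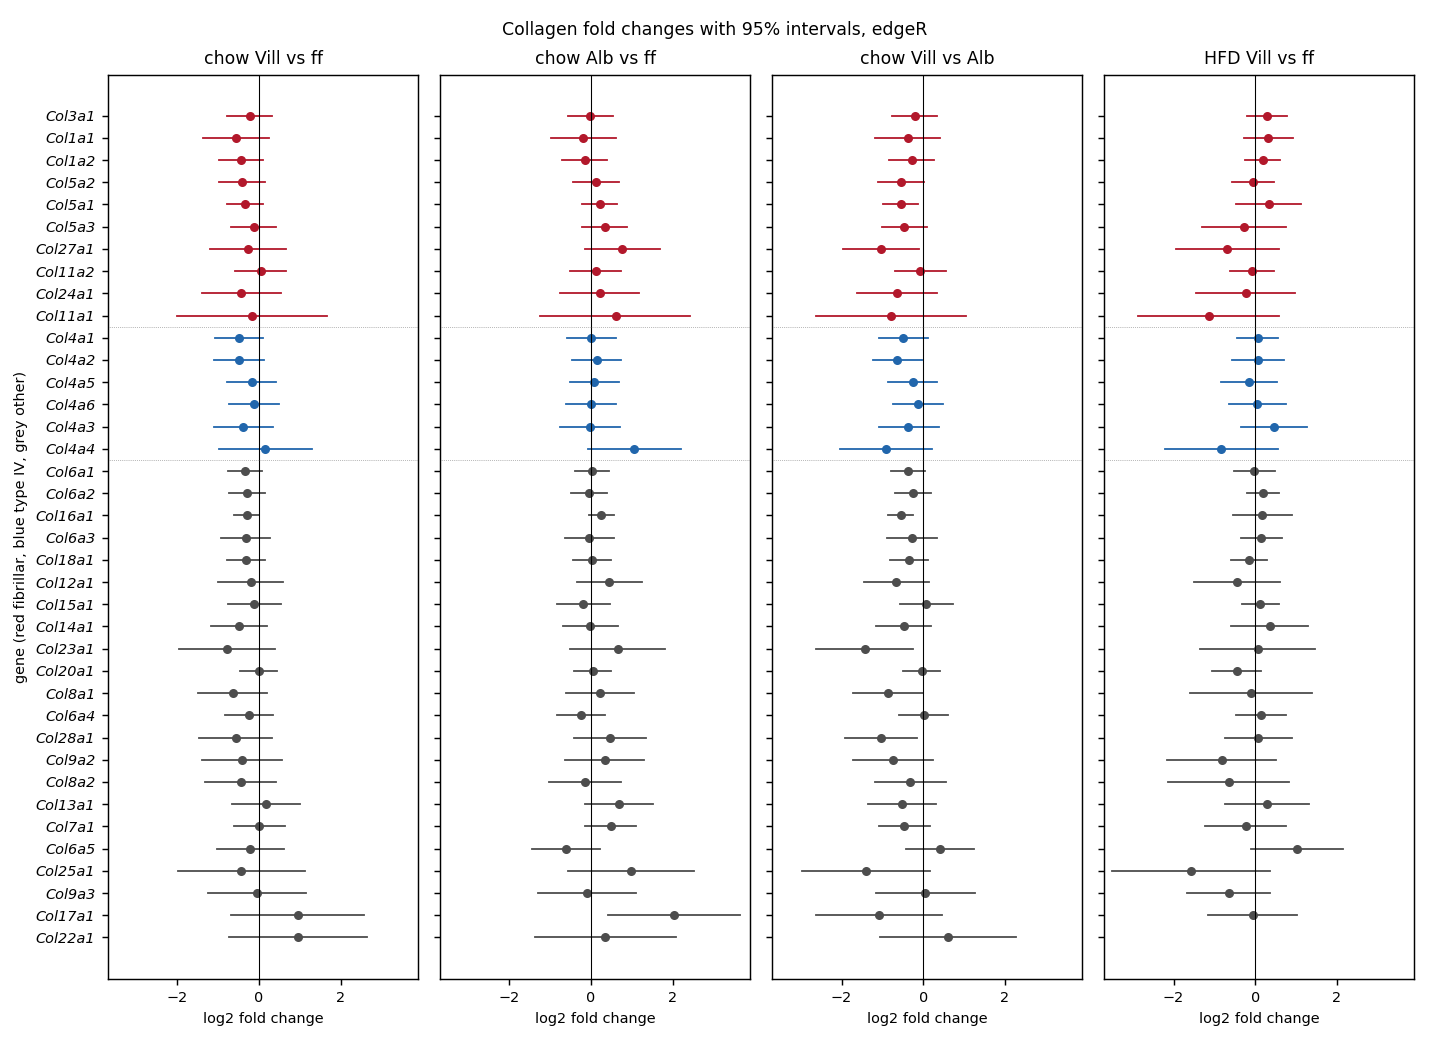
Points are log2 fold changes and lines their 95% intervals for each tested collagen in 4 comparisons, red for fibrillar, blue for type IV and grey for other chains. Most intervals cross 0, and points lie left of 0 for all fibrillar and type IV chains in chow Vill against Alb.

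The third comparison sets the gut knockout against the liver knockout, both on chow. It shares its Vill and Alb libraries with the comparisons above and is not independent of them. Of 38 collagens 0 were called, beside 0.00508% of all genes, and 7 had an unadjusted p under 0.05, beside 8.87% of all genes. All 7 were lower in Vill, as were 4.89% of all genes at that threshold. By estimate 33 of 38 collagens were lower in Vill, among them 10 of 10 fibrillar and 6 of 6 type IV chains, and the median log2 was -0.46 (all genes 0.02). The median stayed between -0.56 and -0.33 when any single library was left out.

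Col16a1 had the smallest p of the collagens here. Its 4 Alb libraries, at 48.5, 55.2, 51.8 and 54.1 CPM, all lay above the Vill values of 24.7, 39, 36.6 and 42.5. The log2 fold change was -0.55 (-0.87 to -0.24, adjusted p = 0.46, and 0.0603 to 0.86 over the alternatives). The exact permutation p was again 0.0286, and 0.741 after adjustment. Across all genes 2.12% had their 4 Vill libraries below the 4 Alb libraries. Of the 31 collagens compared this way Col16a1 alone did so in this comparison. Col5a1 followed, at 31.1, 40.7, 33.5 and 52.2 CPM in Vill and 49.2, 43.8, 72.9 and 65.3 in Alb (log2 -0.55, -0.99 to -0.12), with Vill 4 inside the Alb range.

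The remaining 5 were Col23a1, a transmembrane collagen (-1.43), Col27a1, a minor fibrillar chain (-1.04), Col28a1, a chain known from peripheral nerve (-1.03), Col8a1, a short-chain collagen of vessel walls (-0.86), and Col4a2 (-0.63). Col23a1 stood at 34.3 and 27.1 CPM in Alb 1 and Alb 3, and at 8 and 9.08 in Alb 2 and Alb 4. The Vill libraries held 9.38, 8.05, 3 and 8.72 CPM, so the difference lay in Alb 1, Alb 3 and the low Vill 3. Col28a1 split the Alb group in the same way, at 9.59 and 9.67 against 4.86 and 3.98 CPM. Smooth muscle markers summed to 9850 and 12700 CPM in Alb 1 and Alb 3, 4950 and 5590 in Alb 2 and Alb 4, and 1150 in Vill 3. Neuron and glia markers summed to 177 and 156, 74.1 and 74.5, and 21.1 CPM in the same libraries, and small intestine markers to 477 and 684, 65 and 112, and 43.4 CPM. The 10 smooth muscle markers were all lower in Vill than in Alb by estimate (median log2 -0.85), as were 8 of 9 neuron and glia (-0.89), 6 of 6 pericyte (-0.72) and 8 of 8 endothelial markers (-0.30). The part of these markers in the collagen differences was not tested.

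On the high fat diet the gut knockout was set against its floxed controls. No collagen was called (0 of 37, beside 0.00564% of all genes), and 0 had an unadjusted p under 0.05, beside 3.45% of all genes. Of the 37, 19 were lower and 18 higher, and the median was -0.02 (all genes 0.00). Col6a5, a type VI chain, had the smallest p, at 0.254, 1.48, 0.73 and 1.12 CPM in ff and 1.87, 2.3, 0.993 and 2.22 in Vill (log2 1.03, -0.11 to 2.16). Vill 3 lay inside the ff range. Col25a1, a transmembrane collagen of nerve cells, had the largest estimate (-1.58, -3.52 to 0.35): it stood at 10.6 and 6.96 CPM in HFD ff 1 and 3, at 1.48 and 1.07 in HFD ff 2 and 4, and at 0.499 to 3.42 in HFD Vill. Without HFD ff 1 and 3 it turned to 0.43, Col11a1 turned from -1.14 to 0.53, and in that refit 6 collagens had a log2 below 0, with a median of 0.16 over those tested. Those 2 libraries also carried 817 and 1070 CPM of small intestine markers, against 76.5 to 382 in the other 6 HFD libraries. Col20a1 and Col9a3, both fibril-associated, were at -0.45 and -0.65. For the abundant chains the intervals were -0.21 to 0.79 (Col3a1), -0.28 to 0.93 (Col1a1), -0.44 to 0.55 (Col4a1) and -0.52 to 0.48 (Col6a1).

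Whether the Villin-Cre effect differs between the diets was tested as an interaction. Of 37 collagens 0 were called, beside 0% of all genes, and 2 had an unadjusted p under 0.05, beside 2.54% of all genes. Both were the type I chains. Col1a1 was lower in Vill on chow (-0.57) and higher on HFD (0.32) by the separate estimates, and the difference was 0.90 (0.21 to 1.59, adjusted p = 1). For Col1a2 it was 0.62 (0.01 to 1.24, adjusted p = 1). These are the subunits of 1 protein and do not count as separate observations. Averaged over the diets, 0 of 37 collagens were called (0.00512% of all genes), 0 had an unadjusted p under 0.05 (3.46% of all genes), and 31 of 37 were lower in Vill, with a median of -0.18 against 0.00. The smallest p there belonged to Col25a1 (interval -2.24 to 0.24) and Col18a1 (interval -0.53 to 0.06).

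Levels on chow and HFD were set side by side without a test, since the 2 sets differ in diet, age and sex together. Summed collagen CPM ran from 1070 to 2250 in the chow libraries and from 433 to 885 in the HFD libraries. In 5 of 37 collagens every HFD library lay below every chow library (13.5%, beside 1.79% of all genes): Col3a1, Col1a2, Col6a1, Col6a2 and Col6a3. The count was 9 without chow Vill 3 (2.09% of all genes), and likewise 9 without HFD Vill 1 (2.49%). No collagen lay above in every HFD library. Between the floxed controls alone, 17 of 37 collagens had all 4 HFD libraries below all 4 chow libraries (45.9%, beside 9.29% of all genes), a count chosen after the data had been seen.

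The 17 included the 10 chains of highest CPM in chow ff, and also less abundant ones such as Col6a4, Col6a5 and Col4a6. Col12a1, at 45 CPM in chow ff, and Col27a1, at 19.7, were not among them. Col1a1 was furthest apart, at 131 ± 20.3 CPM in chow ff and 29.5 ± 4.38 in HFD ff, a log2 difference of -2.13. Col6a5 differed by -1.82, Col6a2 by -1.67, Col5a1 by -1.57, Col1a2 by -1.54, Col6a1 by -1.53 and Col3a1 by -1.49. In type IV, Col4a1 went from 167 ± 33.3 to 62.1 ± 11.6 CPM (-1.42), Col4a2 from 113 ± 25 to 40.5 ± 6.79 (-1.47) and Col4a6 from 5.66 ± 2.02 to 2.33 ± 0.371 (-1.12). The rest of the 17 were Col14a1, Col15a1, Col16a1, Col18a1, Col5a2, Col6a3 and Col6a4. Collagens that did not share this order included Col7a1, the anchoring fibril chain, at 2.75 ± 0.355 and 3.19 ± 0.94 CPM, and Col28a1, at 5.1 ± 0.78 and 4.35 ± 0.786. Col25a1 and Col9a2 had higher means on HFD, with overlapping libraries.

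**Figure D3:**
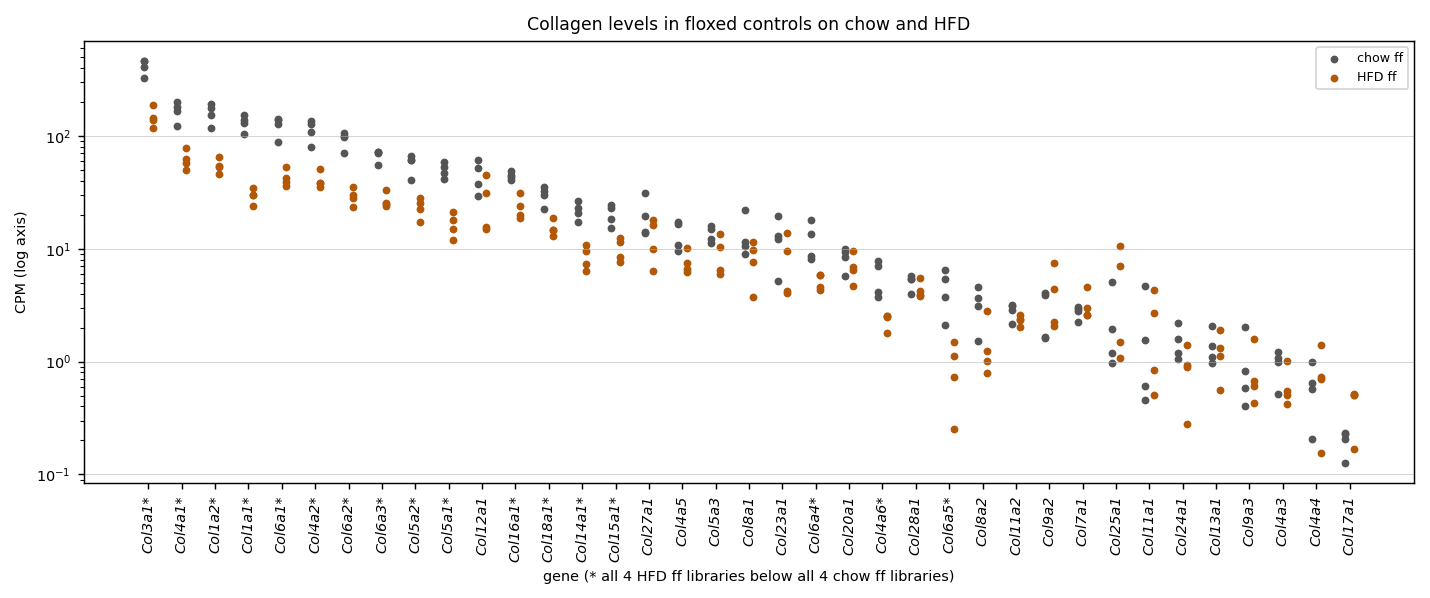
Points are libraries of the floxed controls on chow (grey) and HFD (brown), the y axis CPM on a log scale, and genes are ordered by their chow mean. The starred 17 genes have all 4 HFD points below all 4 chow points and lie mostly among the abundant chains.

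Genes that work with collagen showed the same order to differing degrees in the floxed controls, beside the 9.29% of all genes given above. All 4 HFD libraries lay below all 4 chow libraries for 11 of 16 fibril partners (small proteoglycans, fibulins and related proteins), 9 of 15 basement membrane partners (laminins, nidogens and proteoglycans), 4 of 14 propeptide and crosslinking enzymes, 5 of 22 collagen synthesis genes and 5 of 17 matrix proteases and inhibitors. The median log2 differences were -0.90, -0.74, -0.67, -0.23 and -0.40. For collagen receptors it was 1 of 9 and for genes of TGF-beta signalling and fibrosis 3 of 11 (medians -0.40 and -0.63). Of cell markers, 6 of 7 macrophage, 6 of 10 fibroblast, 5 of 10 smooth muscle, 3 of 8 endothelial and 2 of 6 pericyte genes did so, and 0 of 9 epithelial and 0 of 9 neuron and glia genes, again beside 9.29% of all genes. Summed macrophage markers were 101 to 184 CPM in chow ff and 49.4 to 59.5 in HFD ff, and their relation to the collagen levels was not tested.

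In the chow comparisons the partner genes were not called either. In Vill against Alb all 16 fibril partners and all 14 propeptide and crosslinking enzymes were lower by estimate, with medians of -0.60 and -0.45. Tnxb, a tenascin that links fibrils, was at -0.92 (SE 0.19, adjusted p = 0.401), and Ogn, a small proteoglycan, at -0.81 (SE 0.24, adjusted p = 0.513). Loxl1, which crosslinks collagen and elastin, was at -0.68, and Adamts2, which trims fibrillar propeptides, at -0.65. Lamb2 and Lamc1, laminin chains, were at -0.56 and -0.49, and Timp3 and Timp2, inhibitors of matrix proteases, at -0.89 and -0.77. Of the folding and modification genes 15 of 22 were lower, with Fkbp14 at -0.53 and Fkbp10 at -0.65. In Vill against ff on chow 16 of 16 fibril partners, 14 of 14 propeptide and crosslinking enzymes and 18 of 22 synthesis genes were lower, led by Fbln1 (-0.52), Tnxb (-0.48), Pcolce (-0.28), Fkbp10 (-0.66) and P3h1 (-0.62). Mrc2, a receptor that takes up collagen for breakdown, was at -0.73 (adjusted p = 1). In Alb against ff the lists split both ways, Lamb2 (0.51) and Timp1 (-1.11) having the smallest p. On HFD 10 of 16 fibril partners and 8 of 15 basement membrane partners were lower, and Mmp11, a matrix protease, was at -0.90 (adjusted p = 0.932).

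Several pairs of chains kept their proportions more closely than their levels. The ratio of Col4a1 to Col4a2, per kb of gene length, was 1.32 ± 0.128 over the 20 libraries, with extremes of 1.03 and 1.64. Within groups its log2 SD was 0.13, against 0.40 and 0.44 for the levels of the chains. Col6a1 exceeded Col6a2 by 2.54 ± 0.291 fold (log2 SD 0.15, against 0.32 and 0.29). Col5a1 and Col5a2 were near equal at 0.985 ± 0.178, with a log2 SD of 0.27 (against 0.43 and 0.39). The type I pair Col1a1 and Col1a2 also had 0.27 (against 0.55 and 0.37). Col3a1 to Col1a1, chains of different collagen types, had 0.27 as well (against 0.38 and 0.55). That pair was thus as close as the type V and type I pairs, but less close than Col4a1 to Col4a2 and Col6a1 to Col6a2. The short-chain pair Col8a1 and Col8a2 showed no such closeness: its ratio ran from 0.83 to 9.09, and its log2 SD of 1.08 exceeded that of either chain (0.80 and 0.58). The 9.09 came from HFD Vill 4, where Col8a2 stood at 0.136 CPM and counting error is large. The ratio was 8.21 in chow ff 3. Col4a3 and Col4a4, which begin 71 bases apart, ranged from 0.429 to 6.27, at reads so few that counting error is large. Members of a ratio share library and depth, and these are descriptions.

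The type I ratio was tightest in HFD ff and most spread in chow Alb. Col1a1 to Col1a2 was 1.58 ± 0.15 in chow ff, 1.45 ± 0.164 in chow Vill, 1.42 ± 0.45 in chow Alb, 1.03 ± 0.032 in HFD ff and 1.12 ± 0.221 in HFD Vill. All 4 chow ff libraries (1.36 to 1.7) thus lay above all 4 HFD ff libraries (0.988 to 1.06). In chow Alb the ratio ranged from 0.92 to 1.92. Col3a1 to Col1a1 was 2.11 ± 0.0876 in chow ff and 3.31 ± 0.206 in HFD ff, again without overlap. None of the 24 exact permutation tests of 6 ratios in 4 comparisons within a diet passed 0.05 (smallest adjusted p = 0.914). The smallest p such a test can give is 0.0286, so a lone separated ratio could not pass after adjustment over 24 tests.

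**Figure D4:**
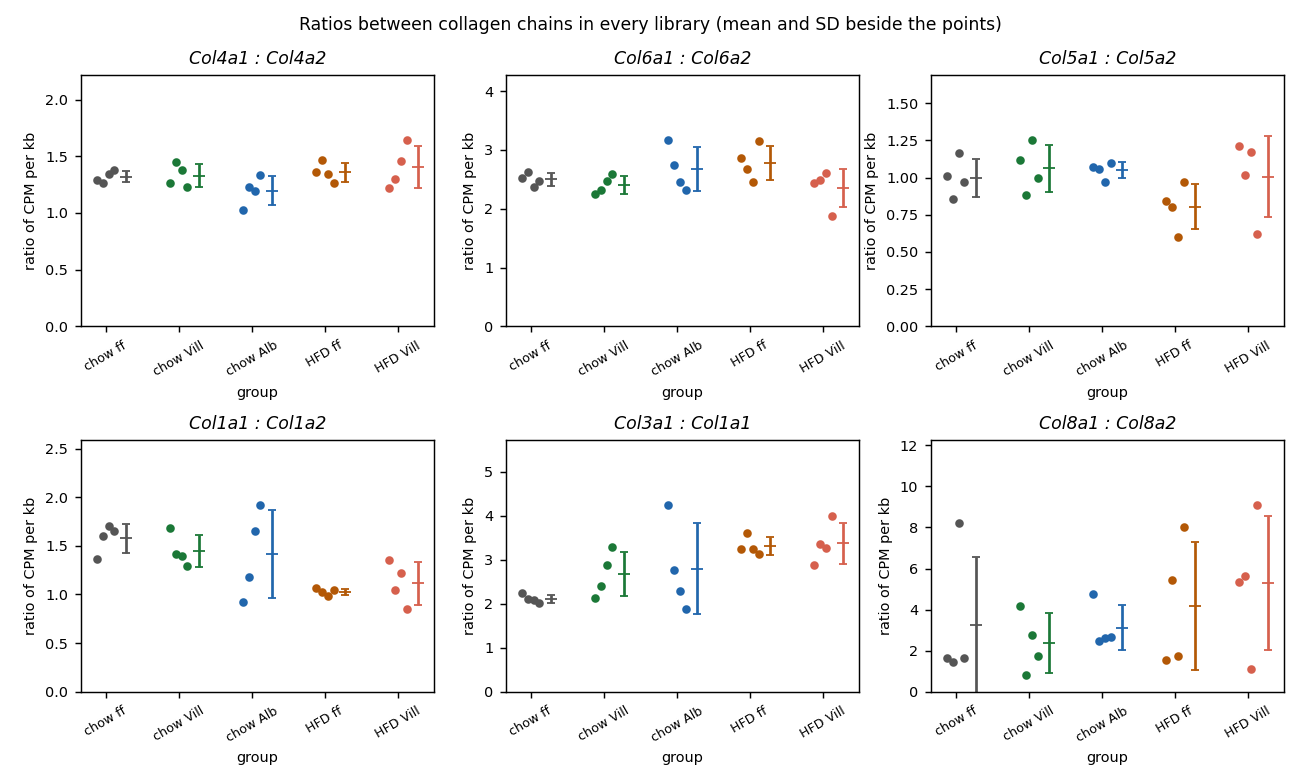
Points are libraries, with group mean and SD beside them, and the y axis is the ratio of CPM per kb for 6 chain pairs. Col4a1 to Col4a2 stays between 1.03 and 1.64 in all 20 libraries, while Col8a1 to Col8a2 spans 0.83 to 9.09.

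Libraries of 1 group differed most in a set of less abundant collagens. The largest within-group SD of log2(CPM + 0.5) belonged to Col25a1 (1.02), Col11a1 (0.93), Col23a1 (0.91), Col8a1 (0.80), Col27a1 (0.77) and Col12a1 (0.66), beside 0.38 for Col3a1 and 0.29 for Col6a2. Counting error at the mean depth gives 0.16 for Col25a1, 0.081 for Col23a1 and 0.063 for Col27a1, so it is a small part of that spread. Col12a1, a fibril-associated chain of muscle and tendon, stood at 57.3, 36.6, 97 and 55.1 CPM in chow Alb and at 45.2, 15.6, 30.9 and 15 in HFD ff. Col27a1 stood at 49.2, 20.9, 46.4 and 17.5 CPM in chow Alb, at 17.9, 6.29, 16.4 and 9.99 in HFD ff and at 14, 10.5, 5.43 and 2.13 in HFD Vill. Alb 3 and HFD ff 1 were thus the highest or next to highest library of their group for both genes.

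In every group the highest library for each of Col25a1, Col11a1, Col23a1 and Col27a1 was one of the 2 highest for neuron and glia, smooth muscle and pericyte markers. Neuron and glia markers summed to 160 and 105 CPM in HFD ff 1 and 3 against 47 and 57.6 in HFD ff 2 and 4, and to 137 CPM in chow ff 2 against 57.2 to 71.9 in the other chow ff libraries. HFD Vill 4, the lowest library for Col23a1 (2.22 CPM) and Col27a1 (2.13), held 11.9 CPM of neuron and glia and 1040 CPM of smooth muscle markers, the lowest of its group. Small intestine markers were high in most of the same libraries: 1020 CPM in chow ff 2 against 72.6 to 211 in the other chow ff libraries, and 918 and 533 in chow Vill 1 and 4 against 110 and 43.4 in Vill 2 and 3. In HFD Vill 4 they were not low (337 CPM). Col8a1 departed from these markers in some groups only. In chow ff 3, its highest chow ff library, it stood 0.80 above its group mean in log2(CPM + 0.5). Neuron and glia markers stood at -0.44 there and smooth muscle markers at -0.39. In HFD ff 3 it stood at -0.92, where neuron and glia markers stood at 0.35. In chow Alb 1 to 4 it moved with them, at 0.30, -0.27, 0.29 and -0.32, where neuron and glia markers stood at 0.67, -0.58, 0.49 and -0.57. Col1a1 did not follow the marker order in chow Alb: it was lowest in Alb 1, at 41.4 CPM, where smooth muscle markers stood at 9850 CPM. Col15a1, a vessel and muscle basement membrane collagen, was likewise lowest there, at 7.56 CPM. Whether tissue make-up accounts for these values was not tested.

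**Figure D5:**
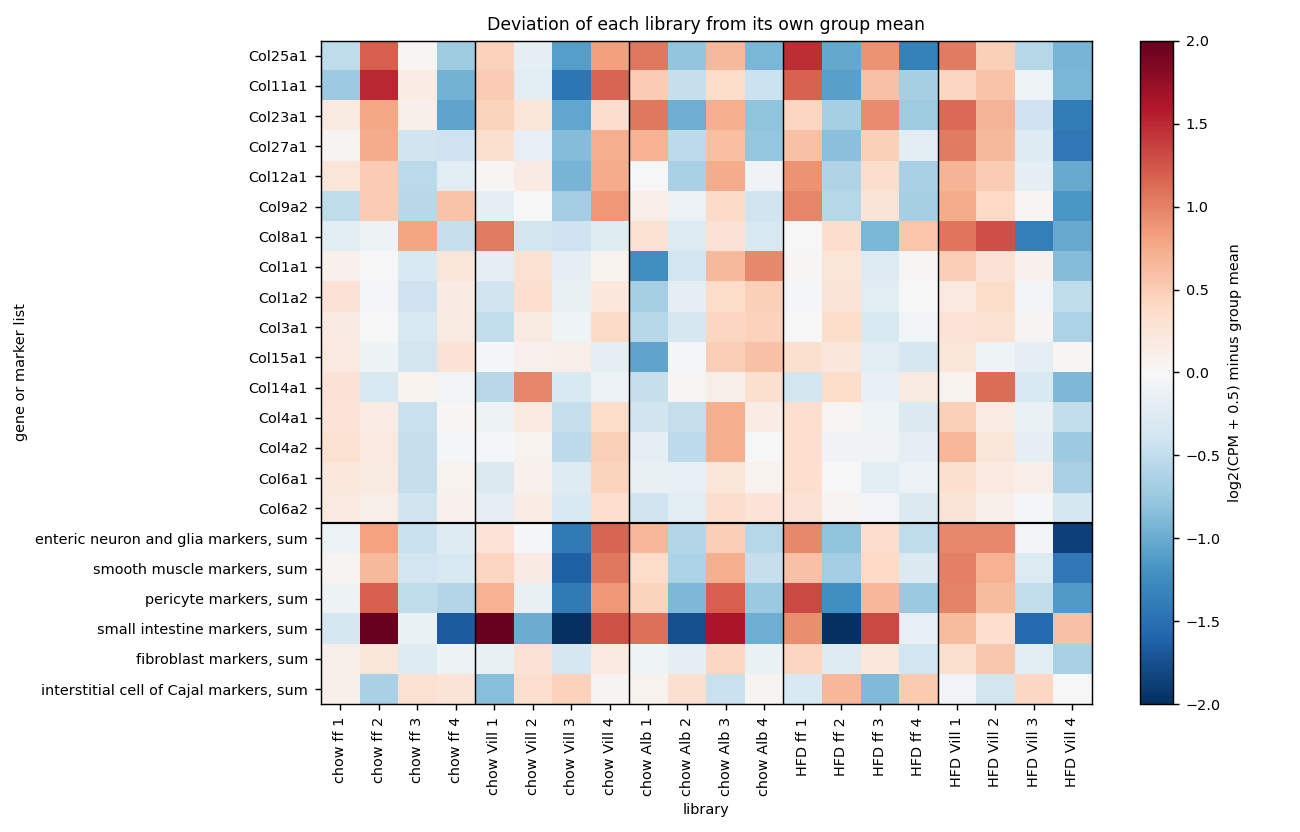
Each cell is a library's log2(CPM + 0.5) minus its own group mean, for 16 collagens (above the line) and the summed markers of 6 cell types (below it); colours saturate at 2. Col25a1, Col11a1, Col23a1 and Col27a1 are high in HFD ff 1 and low in chow Vill 3, as are neuron, smooth muscle and pericyte markers.

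The authors' deposited table, which lists all 43 collagens in 4 comparisons, called none of them. Its smallest adjusted p for a collagen was 0.253, in chow Vill against Alb, and 35, 13, 38 and 22 of the 43 had a negative fold change in Vill against ff, Alb against ff, Vill against Alb and HFD Vill against ff. In the same order 2, 2, 8 and 2 had an unadjusted p under 0.05 there. The 2 in chow Vill against ff were Col1a1 and Col4a1, where the edgeR test above had 0. The shares of all genes of that table at this threshold and with a negative fold change were not computed. These counts therefore do not set collagens apart from other genes. Whether the libraries keep the strand is not settled. 28 of the members overlap another listed gene, such as Col18a1 with Slc19a1, Col9a3 with Tcfl5 and Col4a1 with Col4a2, so reads of such partners could be shared.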

How the data were processed

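Whole-colon poly-A RNA was sequenced in 20 libraries. Per the submitters' processing notes, reads were handled with HISAT2 2.0.5, featureCounts 1.5.0-p3, DESeq2 1.20.0 and edgeR 3.22.5 on mm39. The deposited tables hold raw read counts per gene, and the authors' log2 fold changes with p-values and adjusted p-values, which were only set beside the new tests. A further 28 per-sample columns were not used.

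Counts were tested with edgeR 4.0.16 under R 4.3.3 (quasi-likelihood F test, TMM, default expression filter, Benjamini-Hochberg over all tested genes). The 3 chow comparisons came from a fit of 12 libraries, HFD from a fit of 8, and the interaction and average from a fit of 16. Levels are CPM with TMM over 20 libraries, and CPM per kb use the deposited gene length. Exact permutation tests used log2(CPM + 0.5). Alternatives were DESeq2 1.42.0, limma-voom from limma 3.58.1, other scaling, filters, a replicate block and leaving out libraries. Counts of 19259 genes were simulated for chow Vill against ff. Of these, 67 were altered 1.5-fold, 67 altered 2-fold and 66 altered 4-fold, and 2.99%, 28.4% and 62.1% of them were called. The simulated run had 64 calls in all, where the real comparison had 1, so these shares need not hold for the collagens. Named genes are the 4 highest per kb in each class, the 5 smallest p per comparison, all chains of types I, III, IV, V and VI, and the 2 smallest p of each partner list. One partner gene that this rule names is not reported here. Members and lists were chosen with earlier results of these data known. Counting error limits low genes: 3 reads is the floor below which a level means little.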

Additional observations from a re-analysis of the deposited data

Results flagged for a closer look

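In groups of 4, a library was singled out where its gap to the nearest other library took more of the group's range than Dixon's limit allows. Of 155 groups of 31 collagens tested, 6 were singled out, and chance gives about 1 in 20 groups. Col17a1 stood at 2.23 CPM in chow Alb 2, above 0.28 to 0.446 in the other Alb libraries, and at 0.168 CPM in HFD ff 3, below 0.505 to 0.514. Col4a6 stood at 1.77 CPM in HFD ff 4, below 2.5 to 2.53. Col6a3 stood at 55 CPM in chow ff 3, below 71.2 to 72.2, and at 33 CPM in HFD ff 1, above 24 to 25.3. Col6a6 stood at 0.214 CPM in HFD Vill 1, where the other 3 libraries had no read.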

How the results depend on the processing

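No collagen was called in any of the 6 comparisons under any alternative run, and no result changed sign with a call. Counts of called genes over all genes moved. DESeq2 called 3 genes for chow Vill against ff, 11 for Alb against ff, 90 for Vill against Alb, 2 for HFD Vill against ff and 7 for the average over diets, where edgeR called 1, 0, 1, 1 and 1. Limma-voom called 2 for the average. Without a filter on low counts 2 genes were called for chow Vill against ff and 2 for the average. Without HFD ff 1 and 3 the counts were 2 for HFD and 2 for the average, and leaving out single libraries gave 1 to 2 for the average. The labels do not say whether the replicate numbers pair the samples. Same-numbered libraries correlated with either sign across groups (-0.571 to 0.472). Different-numbered ones did so as well (-0.614 to 0.619), so these correlations cannot settle pairing by litter or batch. With a replicate block the calls for chow Vill against ff and Vill against Alb were 0 and 0, with 0 collagens as before. Of 37 collagens, 5 to 9 had every HFD library below every chow library when single libraries were left out. For all genes that share was 1.82 to 2.49%. In the floxed controls 17 to 20 did so, beside 10.3 to 12.7% of all genes. Without HFD ff 1 and 3 the count there was 25, and the share of all genes also rose, to 18.8%. In those counts the cause of the change was not tested. The exact tests of 4 against 4 were not rerun with a library left out. Depth limits the rarest members, which hold 18 to 162 reads in all 20 libraries together.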
